A study of Homo sapiens with 6 samples.

Results

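The 10 genes described here, NFE2L2, KEAP1, HMOX1, NQO1, GCLC, GCLM, TXNRD1, SRXN1, SLC7A11 and GPX2, belong to the NRF2 and glutathione antioxidant system. They were chosen by symbol from the 27216 rows of the deposited expression table, and all 10 were found. RNA-sequencing was performed on H1975 cells, a human EGFR-mutant non-small cell lung cancer line, with 3 samples of parental cells, at 0 h, and 3 of adapted cells, kept for 72 h with 1000 nM of the EGFR inhibitor osimertinib (Osi). Both groups carry the label wild type, and the adapted samples were the cells left on the plate once dying cells had been rinsed away. The table names the parental columns for DMSO, the labels describe them as Osi for 0 h, and a matched time in culture is not stated, so Osi and time in culture cannot be told apart. The labels also describe RNase R, an enzyme that digests linear RNA, before library construction, which the methods of the study do not mention. The values are on a scale taken as log2(FPKM + 1). FPKM corrects the fragments of a gene for transcript length and for the mapped fragments of the sample.

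NRF2, encoded by NFE2L2, is a transcription factor that is held at a low protein level by KEAP1, the adaptor that presents it to a CUL3 ubiquitin ligase. When cysteines of KEAP1 are oxidised or modified, NRF2 accumulates, pairs with a small MAF protein and binds antioxidant response elements in the regulatory regions of genes for glutathione synthesis, thioredoxin turnover and quinone and heme breakdown. BACH1, a repressor, binds the same elements. NRF2 protein can therefore change without its mRNA, and neither protein, glutathione nor reactive oxygen was measured in these files.

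The core of the antioxidant response element, TGACNNNGC, was searched on both strands of the RefSeq promoters (GRCh38.p14, 250 bases before to 50 after a start). Of the 10 genes, 8 have an entry there, with 11 promoters, and HMOX1 and SLC7A11 have none. The core was found in 5 of the 11 promoters, against 13.3% of all 35116 promoters. By gene it was found in 4 of the 8, against 16.1% of all 27305 genes searched. The AP-1 site TGACTCA, which overlaps the core when GC follows it, was found in 0 of the 11, against 4.95% of all promoters. The matches are shown for the letters around each start, and whether they bear on the levels given further on was not tested. They are written along the strand of the gene, 5′ to 3′, with the core in capitals, so that a match on the opposite strand reads GCNNNGTCA.

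KEAP1, chr19:10502807-10502835, minus strand: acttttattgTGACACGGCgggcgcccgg
KEAP1, chr19:10502784-10502812, minus strand: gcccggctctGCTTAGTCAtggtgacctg
GCLM, chr1:93909446-93909474, minus strand: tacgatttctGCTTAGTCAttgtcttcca
GPX2, chr14:64942849-64942877, minus strand: acctgtttttGCTAAGTCAtcctggggat
TXNRD1, chr12:104215670-104215698, plus strand: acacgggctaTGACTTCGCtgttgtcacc
TXNRD1, chr12:104286920-104286948, plus strand: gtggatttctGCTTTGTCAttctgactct

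The second KEAP1 match and the GCLM match have the same core, TGACTAAGC when read on its own strand, and begin 31 and 34 bases before their starts. The GPX2 core, TGACTTAGC, begins 122 bases before the start. The TXNRD1 matches shown lie in the promoters of 2 different starts of that gene, and a further match, TGACGGAGC, spans the upstream start. No match was found in the promoters of NFE2L2, NQO1, GCLC and SRXN1. These windows are short and a match is a description of letters only.

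Among the 10 genes, 6 fell and 2 rose in adapted cells past the threshold of limma (adjusted p under 0.05 over all 12656 rows tested), and GCLC and GCLM did not pass it. The background is high, since 56.9% of all rows tested passed, 30.7% higher and 26.2% lower. The 6 genes that fell were TXNRD1, NQO1, SLC7A11, GPX2, NFE2L2 and SRXN1, and the 2 that rose were HMOX1 and KEAP1. The median log2 fold change of the 10 genes was -0.40, against 0.028 over all rows tested. In the same 8 genes the parental and adapted samples did not overlap, as in 66.3% of all rows tested. The linear values of the 10 genes summed to between 635 and 654 FPKM in the parental and between 340 and 440 FPKM in the adapted samples, mostly through TXNRD1. In bulk RNA, fewer cells that express a gene and less of its RNA per cell cannot be told apart.

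**Figure D1:**
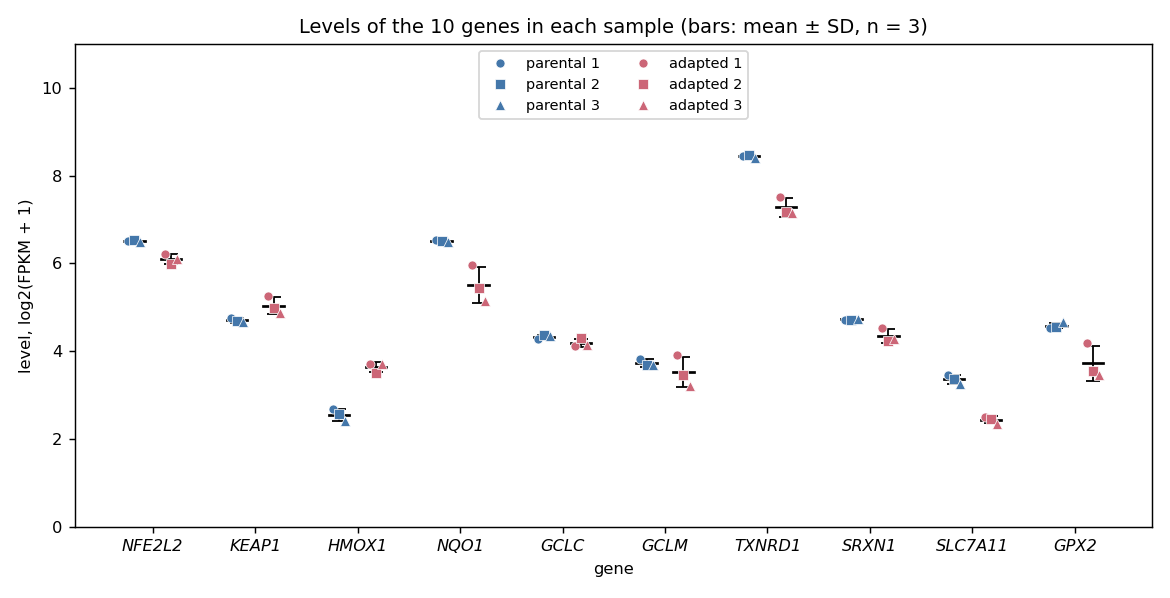
Level of each of the 10 genes, as log2(FPKM + 1) on the y axis, in the 3 parental (blue) and 3 adapted (red) samples, with replicate numbers given by the marker and bars for the mean ± SD. TXNRD1 is the highest gene in both groups, and in 9 of the 10 genes adapted replicate 1 is the highest of the 3 adapted samples.

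Adapted replicate 1 stood apart from the other adapted samples. Across all rows, which are not independent replicates, it correlated with them at 0.991, against 0.996 between adapted replicates 2 and 3 and 0.997 to 0.998 between parental samples. In 9 of the 10 genes (all but GCLC) it was the highest adapted sample, as in 39.6% of all rows tested, and this held for 6 of the 6 genes that fell, as for 56.0% of all rows called lower. Log2 fold changes without it are therefore given for GCLM, GPX2 and NQO1 and plotted for all 10 genes, and a count without it is given for the thioredoxin list. For genes outside the 10, the log2 fold changes given further on rest on all 6 samples. Some of these also depended on adapted replicate 1, in either direction. Without it MAFF went from -1.94 to -2.28 and DPP3 from 0.64 to 0.54. The share of FPKM from mitochondrially encoded genes was 8.07 to 8.66% in parental and 9.73 to 12.2% in adapted samples, and under rescaling without those genes the same 6 genes fell and the same 2 rose. What else the share may mark, and its part in the results, was not tested.

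Markers of cell identity moved in both directions beside the 10 genes. The threshold was passed by 56.9% of all rows tested, so a count called among so few markers tells little by itself. Of 6 epithelial markers, all tested, KRT7 rose from a mean of 9.39 to 10.47 on the log2 scale, KRT8, KRT18 and KRT19 fell with log2 fold changes of -0.28, -0.57 and -0.75, and EPCAM and CDH1 did not pass the threshold. KRT8 was close to it (limma, adjusted p = 0.0477). The summed level of the 6 was 3710 to 3742 FPKM in parental and 3491 to 3788 FPKM in adapted samples, so that the sum hides these changes. Of 6 lung markers, 4 were tested and all 4 passed the threshold. NKX2-1 (0.47) and SFTA3 (1.11) rose, NAPSA (-0.81) and SFTA2 (-0.60) fell, and SFTPC, the surfactant gene that defines alveolar type II cells, was at most 0.065 in any sample. The lung markers summed to 201 to 214 FPKM in parental and 127 to 191 FPKM in adapted samples. Of 10 blood, vessel and fibroblast markers, CD3E and HBB were listed at 0 in every sample, PTPRC was at most 0.077, and 2 passed the filter and were called. CD68 fell from a mean of 6.25 to 4.40, while COL1A1 rose from 2.02 to 3.14. Below the filter, PECAM1 averaged 1.22 in parental and 0.089 in adapted samples, and LUM averaged 0.053 and 0.61. The summed level of these 10 was 78.5 to 80.8 FPKM in parental and 24.0 to 37.3 FPKM in adapted samples, most of it from CD68. The part of these changes in the results was not tested.

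NFE2L2, on chromosome 2 from 177227595 to 177392697 (minus strand, GENCODE v29, GRCh38), was at 6.51, 6.54 and 6.49 log2(FPKM + 1) in parental and 6.20, 5.98 and 6.10 in adapted samples. All 3 adapted values lay below all 3 parental values. The log2 fold change was -0.42 (SE 0.070, limma, adjusted p = 0.00194), and the mean FPKM was 1.34-fold lower in adapted cells. KEAP1 (chromosome 19, 10486120 to 10503741, minus strand) went the other way, from 4.76, 4.69 and 4.66 to 5.26, 4.98 and 4.88. The groups did not overlap, and the highest value was that of adapted replicate 1. Its log2 fold change was 0.33 (SE 0.10, limma, adjusted p = 0.0249). This call was lost when low rows were kept in the fit (adjusted p = 0.0868) and without any one of the 3 parental samples (adjusted p = 0.0512 to 0.0826), while the log2 fold change stayed between 0.22 and 0.41.

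Within each sample, the level of NFE2L2 exceeded that of KEAP1 on the log2 scale by 1.743, 1.845 and 1.836 in parental and by 0.948, 1.002 and 1.222 in adapted cells. The gap narrowed by 0.75 and the groups did not overlap (exact permutation test, two-sided, p = 0.1, below which 3 against 3 samples cannot go). NFE2L2 mRNA remained the more abundant of the pair in all 6 samples.

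Glutathione is a tripeptide of glutamate, cysteine and glycine, and the supply of cysteine and the first ligation step limit its synthesis. SLC7A11 (chromosome 4, 138164097 to 138242349, minus strand), the transport subunit of the cystine-glutamate exchanger, was at 3.45, 3.36 and 3.25 in parental and 2.51, 2.46 and 2.35 in adapted samples. The groups were far apart relative to their spread, and adapted replicate 1 lay close to the other adapted samples. Its log2 fold change was -0.92 (SE 0.082, limma, adjusted p = 1.06e-04), and the mean FPKM fell from 9.26 to 4.43, that is 2.09-fold. Only 6.05% of all rows tested had a lower log2 fold change.

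SLC3A2, the heavy chain that carries SLC7A11 to the cell surface, was at 7.45, 7.44 and 7.44 in parental and 7.83, 7.65 and 7.49 in adapted samples. Its log2 fold change of 0.21 did not pass the threshold (95% interval -0.0033 to 0.43, limma, adjusted p = 0.084). The heavy chain also serves other amino acid transporters and was much the more abundant mRNA. The difference of SLC7A11 minus SLC3A2 changed from -3.99, -4.08 and -4.19 in parental to -5.32, -5.19 and -5.14 in adapted samples. This is a shift of -1.13 without overlap (exact permutation test, two-sided, p = 0.1, again the lowest possible).

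GCLC and GCLM encode the catalytic and the modifier subunit of glutamate-cysteine ligase, which joins glutamate and cysteine. GCLC (chromosome 6, 53497341 to 53616970, minus strand) was at 4.29, 4.37 and 4.34 in parental and 4.12, 4.29 and 4.14 in adapted samples. The highest adapted value, that of replicate 2, lay just above the lowest parental value. The log2 fold change was -0.15 (95% interval -0.31 to 0.011, limma, adjusted p = 0.0978), so a fall of this size was not separated from the spread. Without adapted replicate 2 it was -0.20 and past the threshold (limma, adjusted p = 0.0338).

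GCLM (chromosome 1, 93885205 to 93909456, minus strand) was at 3.83, 3.69 and 3.68 in parental and 3.90, 3.46 and 3.21 in adapted samples. Adapted replicate 1 was above every parental sample and the other adapted samples were below. The log2 fold change over all 6 samples was -0.21 (95% interval -0.59 to 0.18, limma, adjusted p = 0.316). Without adapted replicate 1 it was -0.39 (limma, adjusted p = 0.00679), so that 1 sample decided the call. The difference of GCLC minus GCLM was 0.46, 0.68 and 0.66 in parental and 0.22, 0.83 and 0.92 in adapted samples. It shifted by 0.056, less than the SD of 0.12 in parental and 0.38 in adapted cells (exact permutation test, two-sided, p = 0.9), and its sign changed when single samples were left out. GSS, the ligase of the next step that adds glycine, averaged 5.65 ± 0.03 (SD, n = 3) before and 5.52 ± 0.07 (SD, n = 3) after adaptation and did not pass the threshold (limma, adjusted p = 0.103).

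**Figure D2:**
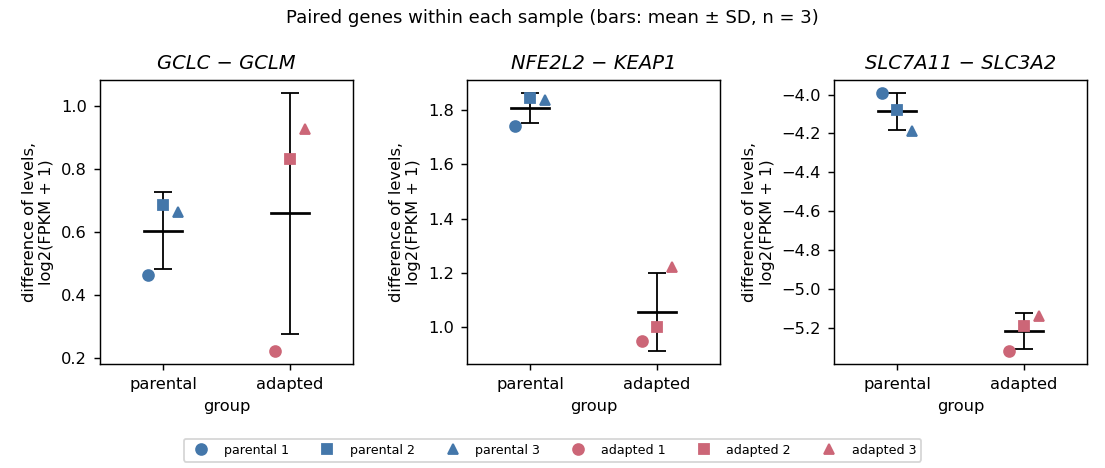
Difference of the log2(FPKM + 1) levels of 2 genes within each sample (y axis, scaled separately in each panel and not from 0), for GCLC minus GCLM, NFE2L2 minus KEAP1 and SLC7A11 minus SLC3A2 in the parental and adapted groups, with bars for the mean ± SD. The groups overlap for the ligase subunits and are apart by 0.75 and 1.13 for the other pairs.

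GPX2 (chromosome 14, 64939152 to 64942905, minus strand) is a selenium-containing glutathione peroxidase of epithelia, which reduces peroxides with glutathione. It was at 4.54, 4.56 and 4.66 in parental and 4.18, 3.54 and 3.45 in adapted samples. The groups did not overlap, and adapted replicate 1 lay nearest to the parental samples. For GPX2 the log2 fold change was -0.86 (SE 0.18, limma, adjusted p = 0.00549), and it was -1.09 without adapted replicate 1 (adjusted p = 7.95e-06). GSR, the reductase that returns oxidised glutathione to its reduced form, was at 5.78, 5.75 and 5.66 in parental and 4.59, 4.56 and 4.62 in adapted samples. It had little spread in either group, and its log2 fold change of -1.14 (SE 0.058, limma, adjusted p = 1.01e-05) was about that of TXNRD1.

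TXNRD1 (chromosome 12, 104215779 to 104350305, plus strand) encodes the cytosolic thioredoxin reductase, a selenoprotein that keeps thioredoxin reduced at the cost of NADPH. It had the highest level of the 10 genes in every sample, at 8.46, 8.47 and 8.41 in parental and 7.52, 7.17 and 7.14 in adapted samples. The groups were well apart. Its mean FPKM was 347 in parental cells and 2.24-fold lower, at 155, in adapted cells, with a log2 fold change of -1.17 (SE 0.11, limma, adjusted p = 1.19e-04). Only 3.96% of all rows tested had a lower log2 fold change, and of the 10 genes TXNRD1 fell the most. SRXN1 (chromosome 20, 646615 to 653370, minus strand), the sulfiredoxin that repairs overoxidised peroxiredoxins, was at 4.72, 4.72 and 4.73 in parental and 4.53, 4.24 and 4.27 in adapted samples. Its parental samples differed by less than its adapted ones and the groups did not overlap. Its log2 fold change was -0.38 (SE 0.085, limma, adjusted p = 0.00727), the smallest of the 6 falls.

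NQO1 (chromosome 16, 69706996 to 69726951, minus strand) encodes a quinone reductase and is widely used as a readout of NRF2. It was at 6.53, 6.51 and 6.50 in parental and 5.96, 5.43 and 5.16 in adapted samples. All adapted values were lower, and they spread over a range much wider than the parental one. NQO1 thus had a log2 fold change of -0.998 (SE 0.18, limma, adjusted p = 0.00277), or -1.22 without adapted replicate 1 (adjusted p = 1.60e-05). Its mean FPKM was 90.2 in parental cells and 1.96-fold lower, at 45.9, in adapted cells.

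HMOX1 (chromosome 22, 35380361 to 35394214, plus strand), the inducible heme oxygenase that frees iron and biliverdin from heme, moved against the 6 genes that fell. It was the lowest of the 10 genes in parental samples, at 2.68, 2.56 and 2.41, and stood at 3.71, 3.50 and 3.70 in adapted samples. The groups did not overlap, and adapted replicates 1 and 3 were nearly equal. This is a log2 fold change of 1.09 (SE 0.098, limma, adjusted p = 1.09e-04), above those of 95.6% of all rows tested. On the linear scale the mean FPKM rose from 4.88 to 11.5, that is 2.35-fold, more than the log2(FPKM + 1) scale gives for so low a gene. BACH1, the heme-sensitive repressor of HMOX1, fell from 4.99 ± 0.03 (SD, n = 3) to 4.22 ± 0.14 (SD, n = 3), with an adjusted p of 2.28e-04 by limma, and whether the 2 changes are linked was not tested.

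**Figure D3:**
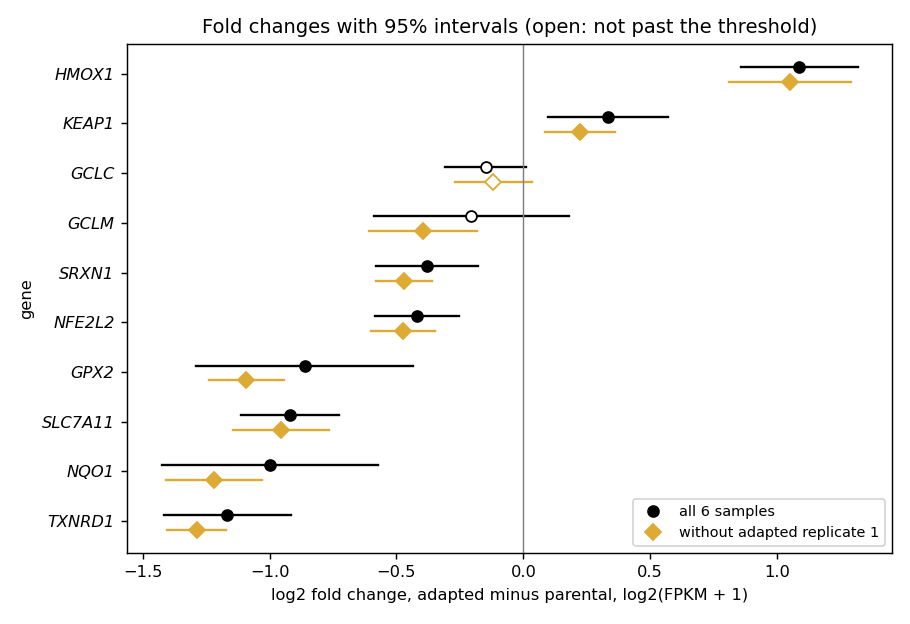
Log2 fold change of each of the 10 genes, adapted minus parental on the log2(FPKM + 1) scale (x axis), with 95% intervals from limma, for all 6 samples (black) and without adapted replicate 1 (yellow). HMOX1 at 1.09 and KEAP1 at 0.33 lie above 0, and GCLM is the only gene whose call changes without that sample.

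On the scale taken here as FPKM, which corrects for transcript length, levels were set side by side between genes. The unit was inferred, the annotation is not given and the labels describe RNase R, so the order is that of the listed values. In parental cells the mean FPKM ran from 347 for TXNRD1 through 90.3 for NFE2L2, 90.2 for NQO1, 25.4 for SRXN1, 25.1 for KEAP1, 23.0 for GPX2, 19.2 for GCLC, 12.3 for GCLM and 9.26 for SLC7A11 to 4.88 for HMOX1. The samples of NFE2L2 and NQO1 overlapped, as did those of SRXN1 and KEAP1 and of KEAP1 and GPX2, and the other neighbours did not. In adapted cells the order was TXNRD1 (155), NFE2L2 (67.5), NQO1 (45.9), KEAP1 (32.0), SRXN1 (19.4), GCLC (17.2), GPX2 (12.6), HMOX1 (11.5), GCLM (10.7) and SLC7A11 (4.43). The neighbours from SRXN1 to GCLM overlapped in turn, and so did NQO1 and KEAP1. HMOX1 thus moved from below SLC7A11 to a level that its samples shared with GCLM and GPX2.

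The rows whose pattern over the 6 samples lay nearest to the 3 genes with the largest changes were also read out, by the root mean square difference of mean-centred log2 values among 11706 named rows. Nearest to TXNRD1 were SPRED2 (0.033), VNN2 (0.037) and BLM (0.044), with log2 fold changes of -1.13, -1.23 and -1.12. Nearest to NQO1 were MNX1 (0.045), SPRED1 (0.052) and CCND3 (0.053), with log2 fold changes of -0.93 to -1.02. Among the rows nearest to HMOX1 were LRPPRC (0.062) and GPRC5B (0.065), with log2 fold changes of 1.11 and 1.10. The adapted values of LRPPRC carry an added constant of 0.66, and its log2 fold change and nearness to HMOX1 include that constant. With 2 groups, such likeness mostly repeats the size of the change.

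The table has 147 rows in which all values of either the parental or the adapted samples leave the 6-decimal grid that the other values share, and they return to it when a constant (0.66, 0.65 or 0.2) is subtracted on the log2 scale. None of the 10 genes is among these rows. Where another gene of the pathway is, its value is given both ways.

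Of 16 partners and regulators of NRF2, 15 were tested, and 6 rose and 4 fell past the threshold. The share called was 66.7%, against 56.9% of all rows tested, and the median log2 fold change was -0.0070. MAFF, a small MAF protein that pairs with NRF2, fell most, from 4.10, 4.12 and 4.07 to 2.83, 1.85 and 1.78 (log2 fold change -1.94, limma, adjusted p = 6.40e-04). The other small MAF genes, MAFG (-0.32) and MAFK (-0.16), did not pass the threshold. CUL3, the scaffold of the ligase, rose from 3.38 ± 0.04 to 4.01 ± 0.20 (SD, n = 3 each), whereas CAND1, which exchanges cullin adaptors, fell from 4.84 ± 0.05 to 4.31 ± 0.07. DPP3, a peptidase that binds KEAP1, rose by a log2 fold change of 0.64, and SQSTM1, the autophagy receptor that also binds KEAP1, changed by -0.30 (limma, adjusted p = 0.0112). GSK3B, a kinase that marks NRF2 for another ligase, rose by 0.56, and TRIM16 rose by 0.68. The related factors NFE2L1 (0.25) and NFE2L3 (0.52) rose as well. BACH2 was below the filter.

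Of 32 other NRF2 target genes, 27 were tested, and 2 rose and 15 fell, with a median log2 fold change of -0.33. The share that fell was 15 of 27, against 26.2% of all rows tested, and 5 of the 27 were higher and 22 lower in adapted cells whatever their p. After rescaling without mitochondrial genes, 4 rose and 14 fell. AKR1B10, an aldo-keto reductase, fell from 3.9995, 3.9364 and 3.9067 to 1.63, 0.36 and 0.16, with adapted replicate 1 again nearest to the parental samples. CES1, a carboxylesterase, was at 2.32, 2.25 and 2.31 in parental samples and listed at 0, 0.067 and 0.063 in adapted ones. ABCC2, an exporter of glutathione conjugates, changed by -1.41 (log2, adjusted p = 1.53e-05 by limma), and ABCC3, a related exporter, changed by -1.02 and also passed the threshold. PGD, an enzyme of the pentose phosphate pathway that makes NADPH, changed by 0.039 and did not pass the threshold. The heavy ferritin chain FTH1 fell by 0.42, and FTL, the light chain, changed by 0.19 without passing the threshold. The 2 that rose were EPHX1, the microsomal epoxide hydrolase (5.15 ± 0.04 to 5.63 ± 0.10, SD, n = 3 each), and BLVRA, which reduces biliverdin (4.19 ± 0.05 to 4.62 ± 0.18). The 5 genes not tested, among them AKR1C1 and AKR1C2, whose near-identical sequences can share reads, were at most at 0.39 in any sample.

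Of 44 other genes of glutathione synthesis, use and breakdown, 43 were found (GSTT1 was not analysed here) and 36 tested. Of these, 12 rose and 10 fell, with a median log2 fold change of -0.057. That is 61.1% called, close to the 56.9% of all rows tested. GSTP1, the main pi-class glutathione transferase, was the highest of them in adapted cells and rose from 8.67, 8.71 and 8.74 to 9.88, 10.39 and 10.30 (log2 fold change 1.48, limma, adjusted p = 1.20e-04). GSTK1, a mitochondrial and peroxisomal transferase, rose by 0.80. GPX4, the peroxidase that reduces lipid peroxides, rose by 1.12 as deposited (limma, adjusted p = 1.35e-05) and by 0.46 with its constant of 0.66 subtracted (adjusted p = 5.92e-04). MGST3, a microsomal transferase, rose by 1.36 as deposited and by 0.70 with its constant subtracted. GGT1, which breaks down extracellular glutathione, fell from 4.85, 4.94 and 4.97 to 4.30, 3.37 and 3.51 (limma, adjusted p = 0.0032). GLRX, the cytosolic glutaredoxin, fell by 1.11 on the log2 scale. GSTM3, from the GSTM gene family, fell by 0.69 (limma, adjusted p = 0.0171). GPX1, the abundant cytosolic peroxidase, changed by -0.12 and did not pass the threshold.

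Of 24 thioredoxin, peroxiredoxin and superoxide genes, 22 were tested, and 6 rose and 2 fell. The share called was 36.4%, below the 56.9% of all rows tested, and the median log2 fold change was 0.017. Without adapted replicate 1, 6 rose and 6 fell, but the number of all rows called also went from 7202 to 8370 of 12656. SOD2, the mitochondrial superoxide dismutase, fell from 7.98, 7.81 and 8.03 to 6.18, 5.94 and 5.85 (log2 fold change -1.95, limma, adjusted p = 1.15e-05). TXN, the substrate of TXNRD1, was also lower, at 7.59, 7.60 and 7.64 in parental and 7.16, 6.85 and 6.45 in adapted samples (log2 fold change -0.79, limma, adjusted p = 0.00482). TXNIP, which binds and inhibits thioredoxin, rose from 3.25, 3.36 and 3.34 to 4.66, 5.25 and 5.47 (log2 fold change 1.81, adjusted p = 2.17e-04). Thus TXNRD1 and TXN fell and TXNIP rose, each without overlap between groups, while the other reductases TXNRD2 (0.37) and TXNRD3 (0.35) rose slightly past the threshold. SESN1, a sestrin, rose by 0.99. PRDX3, the mitochondrial peroxiredoxin, rose by 1.17 as deposited and by 0.51 with its constant subtracted (adjusted p = 0.0375), and NNT, a mitochondrial source of NADPH, rose by 0.95 as deposited and did not pass the threshold at 0.29 with its constant subtracted (adjusted p = 0.0699). SOD1 (-0.20) and CAT, the catalase, did not pass the threshold.

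**Figure D4:**
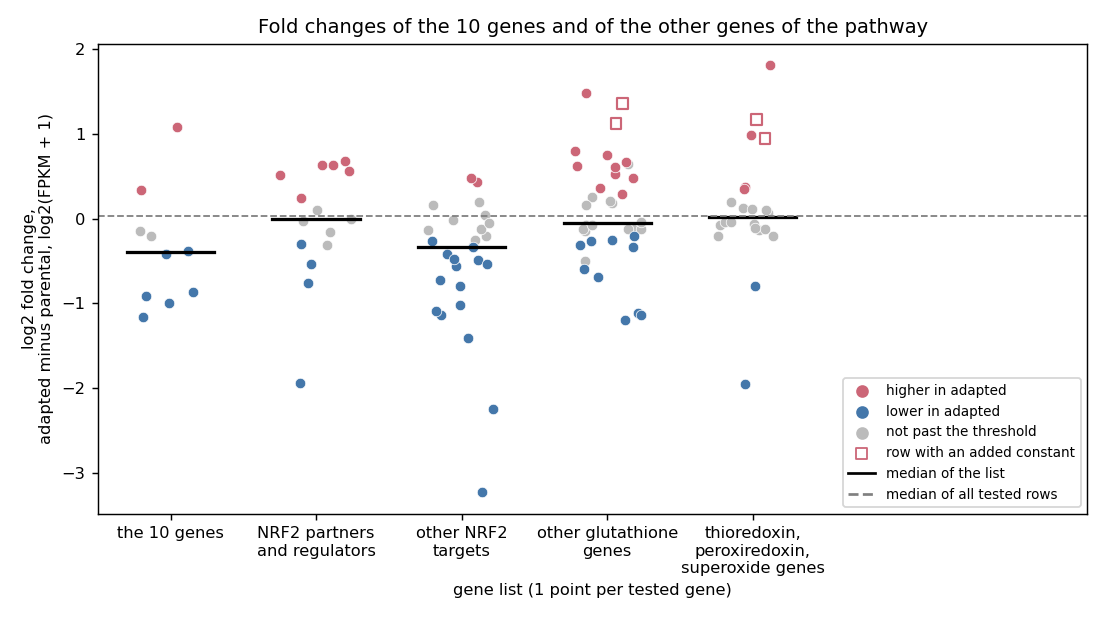
Log2 fold change, adapted minus parental on the log2(FPKM + 1) scale (y axis), of each tested gene of the 10 genes and of 4 lists of other genes of the pathway (x axis), in red or blue where past the threshold, with a bar for the median of each list and a dashed line for that of all rows tested (0.028). The medians of the 10 genes (-0.40) and of the other NRF2 targets (-0.33) lie lowest, and open squares mark the 4 rows with an added constant.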

How the data were processed

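The authors deposited 1 table of log2 values, 1 column per sample, in which the columns were matched to samples by group and replicate number. The submitters' processing notes name hg38, Bowtie2 2.1.0, STAR and edgeR without their roles, and the quantifier and annotation are not given in the sources used here. The unit was taken from the values as log2(FPKM + 1). No counts were analysed, so the depth is unknown, counting error cannot be given, and DESeq2, named in the methods of the study, could not be used. Rows with a mean of at least 1 were tested with limma 3.58.1 in R 4.3.3 (lmFit, eBayes with trend, unpaired, Benjamini-Hochberg over all rows). Nothing states that samples came from separate cultures, so p-values may measure technical spread. In simulated data with 200 of 12656 rows changed by a log2 fold change of 1, 86% were recovered. The simulation gave both groups the same spread and changed a far smaller share of rows than the 56.9% called here. The 86% therefore need not hold for these data. Paired genes were compared by exact permutation.

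The 10 genes, the lists and the alternatives were chosen with earlier results of these data known. Named were all 10 genes, SLC3A2, GSR, GSS and GPX4, and up to 4 genes per list that rose or fell most without overlap. Others named (MAFG, MAFK, NFE2L1, NFE2L3, ABCC3, PGD, FTH1, FTL, GPX1, TXNRD2, TXNRD3, SOD1 and CAT) were picked after their values were seen. Some genes that these rules reach are not reported here. GSR and MGST1, and TXN and PRDX1, each stand in 2 lists. Positions are from GENCODE v29 and promoters from RefSeq.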

Additional observations from a re-analysis of the deposited data

How the results depend on the processing

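Depth is unknown, so the spread between 3 samples a group is the only error. The log2 fold changes of the 10 genes kept their sign under all 20 alternatives (19 for SLC7A11, which a filter of at least 3 leaves out). The 6 falls and the rise of HMOX1 kept their call in each of these. The number of the 10 genes that rose, 2, was 1 without the filter on low values, 1 at an adjusted p under 0.01, and 1 to 2 when single samples were left out, each time through KEAP1. The number of all rows called, 7202, was 4532 with a filter of at least 3, since fewer rows were left. The shift of GCLC minus GCLM, 0.056, ranged from -0.077 to 0.28 when single samples were left out, and was -0.014 without parental replicate 1 and -0.030 without adapted replicate 2. With the replicate block, 6761 rows and the same 8 of the 10 genes were called. No pairing by number was seen, since the deviations of same-numbered samples correlated at -0.051, -0.031 and -0.020 across rows. No sample correlated best with its own number. Such weak correlations cannot show that the samples were not paired.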
